A study of Mus musculus with 8 samples.

Results

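Trafficked maternal cells are cells of the mother that cross the placenta and persist in her offspring. The 2 libraries compared here, of the 8 in the series, held RNA of such cells after intrauterine transplantation of paternal-type donor cells (pIUT), with and without prior removal of the mother's dendritic cells. The 2 were chosen by their labels and not by any measured value. Dams of both groups were CD11c-DTR females on the B6 background, which carry the transgene Itgax-DTR/EGFP. A receptor for diphtheria toxin (DT) is then driven by the CD11c promoter, so that DT kills CD11c+ cells of the dam for a short time. They were mated with BALB/c males, and each F1 fetus received 5000000 BALB/c bone marrow mononuclear cells on embryonic day 14. In the DC-depleted pIUT group the dam had been given DT at 5 ng/g on embryonic day 13, and in the DC control pIUT group she had been given saline. Maternal cells were sorted by H2K-b from whole-body harvests of pups aged 1 week, by magnetic beads and then by FACS, and the cells of 5 pups were pooled in each library. F1 pups inherit H2K-b as well, alongside the H2K-d of their fathers. The maternal library of 17 pooled pups that received no donor cells, called uninjected, is given beside the comparison as the background level, and its labels do not say how many of the dams had DT.

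With 1 library a side, every difference below is between 2 libraries and not between conditions, and no test was possible. Where a pair of counts is given for a gene, DC control pIUT comes first and DC-depleted pIUT second. Counts are estimated read counts as deposited, and folds are ratios of scaled counts. Intervals cover counting error only, and reads are not independent molecules. In bulk RNA, fewer cells of a type and less RNA per cell cannot be told apart.

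Maternal dendritic cells take up antigen and present it to T cells on MHC class II, and they are also found on the maternal side of the placenta. Cells that reach the fetus can be of several blood lineages. Neutrophils, which make up much of the marrow, are built in steps: promyelocytes fill primary granules with myeloperoxidase and elastase, later stages fill secondary and tertiary granules, and mature cells carry receptors for G-CSF and chemokines and transcribe cytokines when they are stimulated. T and B cells each carry a receptor assembled from V, D and J segments, so that the sequence of its CDR3 loop marks a clone.

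Both libraries were of like depth, with 39477126 estimated counts in DC control and 38543457 in DC-depleted pIUT, and a count of 3, used as the detection floor, stood for 0.0593 and 0.0909 counts per 1000000 scaled counts (CPM). Checks of the labels came out mixed. Transcripts of the Y chromosome, which a mother does not have, were found in both libraries: Ddx3y had 408 counts in DC control and 288 in DC-depleted pIUT, Eif2s3y had 753 against 662, and Uty had 320 against 39. Kdm5d was at 0 in both. In the uninjected library all 4 were at 0. Xist, the RNA that coats the inactive X chromosome of female cells, had 206 against 384 counts, and 2036 in the uninjected library. H2-Ea (MHC class II, chr17:34560926-34563618), which mice of the H2-b haplotype do not transcribe, was at 0 in DC control and uninjected cells and had 178 counts in DC-depleted pIUT. Recipient cells, sorted by H2K-d from pups of the same 2 groups, had 2728 and 3749 counts of it. Each of these values bears on how purely maternal the sorted cells were, and their part in the results below was not tested. Itgax, the gene of CD11c, had 611 counts in DC control and 1 in DC-depleted pIUT and 409 in the uninjected library, a difference of 399-fold between the pIUT libraries (95% counting interval 71.3 to 15779.5).

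Of 15663 genes with 10 or more counts in at least 1 of the 2 libraries, 3902 were at least 4-fold higher in DC-depleted pIUT (24.9%) and 4423 were at least 4-fold lower (28.2%), so that 53.2% were past 4-fold in either direction. These percentages are the background against which each gene list is read, and a list with shares near them does not stand apart from all genes. The median of all genes was -0.07 on the log2 scale. When library size alone set the scale, the median moved to -0.65 and the split to 3041 higher and 5331 lower, so a list whose members lie near 4-fold can lose or gain calls. A list's counts under library size are given where they move by more than 1.5 times. In all, 667 genes had 100 or more counts in DC-depleted and 3 or fewer in DC control pIUT, and 1359 genes showed the reverse.

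The size of the difference followed transcript length. Genes were put in 10 bins of equal size by the length of their canonical transcript. In the shortest bin, up to 888 nucleotides, the median log2 fold change was 1.58 and 41.8% of genes were called higher. In the longest bin, from 6581 nucleotides, the median was -1.97 and 49.7% were called lower. The medians went down in each step between these ends. In genes with 100 or more counts in both libraries they ran from 1.65 to -0.81. What sets this trend was not tested. Calls were also made after the median of each bin of length had been taken off. This left 3492 genes higher (22.4%) and 4050 lower (26.0%), of which 2883 and 3533 were the same genes as before, and the length-adjusted counts of a list are likewise given where they move by more than 1.5 times. Such pairs of counts name the higher genes first and the lower genes second.

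**Figure D1:**
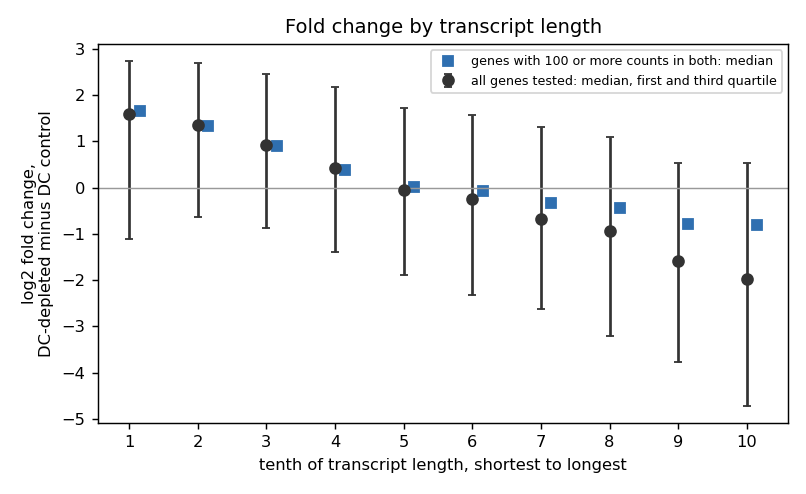
Median log2 fold change between DC-depleted and DC control pIUT for each of 10 bins of canonical transcript length, with bars from the lower to the upper quartile (circles, all genes tested) and for genes with 100 or more counts in both libraries (squares). The medians of all genes tested go down from 1.58 in the shortest bin to -1.97 in the longest.

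The lists of marker and pathway genes hold between 1 and 22 members, of which those with 10 or more counts in either library were tested. Their values are shown in the plot of list members, and the levels behind the leading ones in the plot of named genes in CPM.

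**Figure D2:**
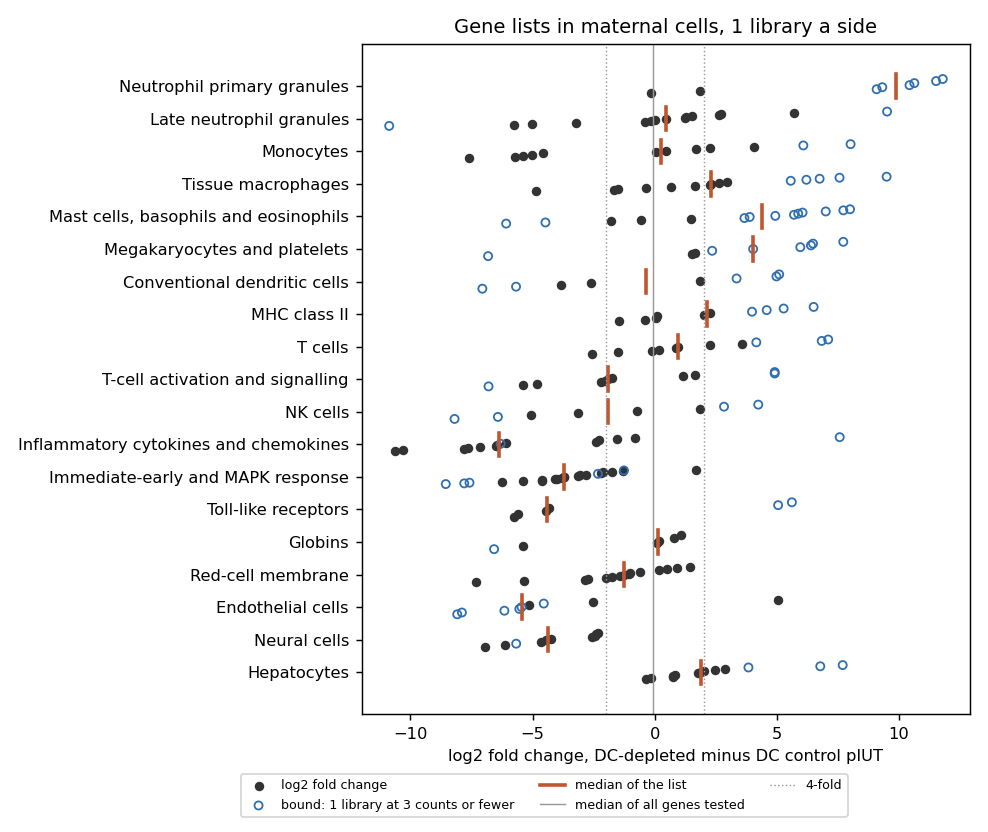
Log2 fold change of each member tested of 19 gene lists, DC-depleted minus DC control pIUT, with 1 library a side. Filled circles are values, open circles are bounds against a library at 3 counts or fewer, the thick bars are list medians and the dotted lines mark 4-fold. Primary granule genes lie far to the right, and cytokine, immediate-early, endothelial and neural genes lie mostly to the left.

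Genes of the primary granules of neutrophils were present in DC-depleted pIUT and close to absent from DC control pIUT. Of 8 tested, 6 were higher, where 24.9% of all genes were, and 0 were lower, with a median log2 fold change of 9.87. In recipient cells, sorted by H2K-d from pups of the same 2 groups, the list median was 3.74, also higher in DC-depleted pIUT. With 10 counts asked of both maternal libraries, which leaves out the genes at or near 0 in DC control, the median was 0.87, under 4-fold. Mpo, myeloperoxidase (chr11:87684407-87695239), had 3 counts in DC control and 6949 in DC-depleted pIUT, which is 3548-fold higher (95% counting interval 1214 to 17210.4). Elane, neutrophil elastase, had 0 against 5746 counts and was at least 2934-fold higher. Prtn3, proteinase 3, had 0 against 2704, and Ctsg, cathepsin G, had 0 against 1249. Ms4a3, a membrane protein of granulocyte and monocyte progenitors, had 0 against 3103, and Prss57, a further granule protease, had 0 against 1064. So each of these 6 genes had between 1064 and 6949 counts in 1 library and at most 3 in the other. Of the 8 members, 7 were also above the uninjected library in DC-depleted pIUT, with Mpo at 210.4 against 0.206 CPM and Prtn3 at 81.9 against 23.5 CPM, while Nkg7 was at 17.3 against 468 CPM. Because of Nkg7 the summed levels of the list lay closer, at 657 and 511 CPM. The members that stayed within 4-fold were Cebpe, a transcription factor of the promyelocyte to myelocyte step, with 498 against 296 counts, and Nkg7, which cytotoxic lymphocytes share, with 239 against 571.

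The later granule genes were split. Of 15 tested, 4 were higher and 4 lower, shares close to those of all genes, with 2 and 4 after the length adjustment. Camp, the cathelicidin of secondary granules, had 2003 counts in DC control and 68569 in DC-depleted pIUT, 52.4-fold higher (95% counting interval 50.2 to 54.9). Fcnb, ficolin B, had 0 against 1431 counts and was at least 731-fold higher. S100a8 and S100a9, the subunits of calprotectin, were 6.17-fold higher and 6.59-fold higher, from 758 to 4681 CPM and from 468 to 3085 CPM. Both are short transcripts, and after the length adjustment their log2 fold changes were 1.04 and 1.13. Among the 4 lower members, Csf3r, the G-CSF receptor, had 8591 counts in DC control and 0 in DC-depleted pIUT and was at least 1869-fold lower. Mmp9, the gelatinase of tertiary granules, was 53.8-fold lower with 21512 against 261 counts, Cxcr2, a chemokine receptor that lets neutrophils leave the marrow, 32.2-fold lower with 3709 against 75, and Mmp8, a collagenase, 9.40-fold lower with 7996 against 555. Secondary granule genes Ltf and Lcn2 differed by 1.11 and 1.39 fold. Other late genes lay within 4-fold, among them Retnlg and Ly6g, of mature neutrophils, with log2 fold changes of 0.03 and 1.25, Cd177 with -0.41, Ngp with 1.55 and Chil3 with 1.27.

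Inflammatory cytokines and chemokines showed the opposite pattern and were high in DC control pIUT. Of 14 tested of 17 listed, 11 were lower in DC-depleted pIUT, where 28.2% of all genes were, and 1 was higher, with a median log2 fold change of -6.37. Il1b, the cytokine interleukin 1 beta (chr2:129206490-129213059), had 58116 counts in DC control and 171 in DC-depleted pIUT, 222-fold lower (95% counting interval 191 to 259). Tnf had 17342 against 7 counts and was 1595-fold lower (785 to 4023). The chemokines Ccl3 and Cxcl2, which draw in monocytes and neutrophils, had 36843 against 19 and 33767 against 110 counts. Il1a, Ccl2, Ccl4 and Cxcl1 were between 67.5 and 141 fold lower, and Ifng, the cytokine of T and NK cells, was at 363 against 0. Of the 14 tested, 9 were above uninjected cells in DC control pIUT, with 1149 against 93.7 CPM for Il1b and 343 against 3.31 CPM for Tnf. The other 5 were below, with 275 against 1106 CPM for Ccl6, and the summed levels of the list were 3616 and 2381 CPM. The member that was higher was Il18, which tissue macrophages keep as a precursor, with 0 against 373 counts. Ccl5 and Ccl9 lay within 4-fold.

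Cd14, most of the Toll-like receptors read and the immediate-early genes were likewise lower in DC-depleted pIUT. Of 6 tested of 12 listed among Toll-like receptors, 4 were lower and 2 higher. Tlr2 and Tlr4, which sense bacterial lipopeptide and lipopolysaccharide, had 7625 against 249 and 5111 against 62 counts, while Tlr1 had 1 against 65 and Tlr12 0 against 96. Cd14, the partner of Tlr4, had 51196 counts in DC control and 173 in DC-depleted pIUT and was 193-fold lower (166 to 226). Of 22 tested among immediate-early and MAPK response genes, 18 were lower and 0 were higher, with a median of -3.72. Egr1 was 76.6-fold lower with 21134 against 180 counts, Junb 24.3-fold lower with 42150 against 1132, and Fos 8.70-fold lower with 27560 against 2069. These encode transcription factors induced within minutes of a stimulus. Dusp1, a phosphatase that shuts off MAP kinases, was 7.11-fold lower, with 51060 against 4688. Egr2, Egr3 and Dusp4 were at 0 in DC-depleted pIUT, from 880, 1726 and 1021 counts. Myc was an exception, at 997 against 2121 counts. Uninjected cells were near DC control pIUT for Egr1, at 403 and 418 CPM, and above both for Fos, at 2270.0 CPM against 545 and 62.7.

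The genes with most reads among those lower in DC-depleted pIUT included Il1b, Cd14 and Dusp1. Others were Nfkbia, the inhibitor of NF-kB, which NF-kB itself induces (72270 against 2937 counts, 16.1-fold lower), Tuba1a, an alpha tubulin abundant in young neurons (251493 against 23570, 6.97-fold lower), Pkm, pyruvate kinase (45964 against 3513, 8.54-fold lower), and Ckb, brain creatine kinase (43532 against 2116, 13.4-fold lower). Those with the largest differences among abundant genes included Cxcl3, a neutrophil chemokine, with 12084 against 0 counts, Gpnmb, a glycoprotein of macrophages, with 10094 against 0, Csf3r, and Tnfaip3, a deubiquitinase that restrains NF-kB, with 9358 against 1. Tnfaip3 was 6109-fold lower (95% counting interval 1096 to 241312). Smgc, a mucin-like protein of the salivary glands, had 18682 against 0 counts and was at least 4065-fold lower. Bpifa2, another protein of the salivary glands, named after its values were seen, had 32392 against 492. Neither was present in uninjected cells. Aplp1 and Crmp1, both expressed in neurons, complete the 7, with 13076 against 0 and 12263 against 2 counts.

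Of the 8 most read genes among those higher in DC-depleted pIUT, several encode proteins that all growing cells need. H2ac24, a replication-dependent histone whose reads may be shared with its near-identical copies, was 6.41-fold higher, from 1736 to 11126 CPM. H2az1, a histone variant, Ran, the small GTPase of nuclear transport, Eif5a, a translation factor, Ppia, cyclophilin A, and Rplp0, of the large ribosomal subunit, were between 4.18 and 6.56 fold higher. S100a8 was among the 8, and so was Tmcc1, which encodes a membrane protein of the endoplasmic reticulum, with 48322 against 142456 counts. After the length adjustment the log2 fold change of H2ac24 was 1.09, of H2az1 0.90, of Eif5a 0.77, of Ppia 0.72 and of Rplp0 0.82, whereas Ran was at 4.29 and Tmcc1 at 3.76. The largest differences among abundant genes were those of Mpo, Elane and Ms4a3, followed by Armt1 (1 against 3271 counts), Frat2 (2 against 2942), Exosc6, of the RNA exosome (0 against 2915), and Tefm, a factor of mitochondrial transcription (0 against 2824). The last 4 are expressed widely, and all were present in uninjected cells, from 7.81 to 36.9 CPM.

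**Figure D3:**
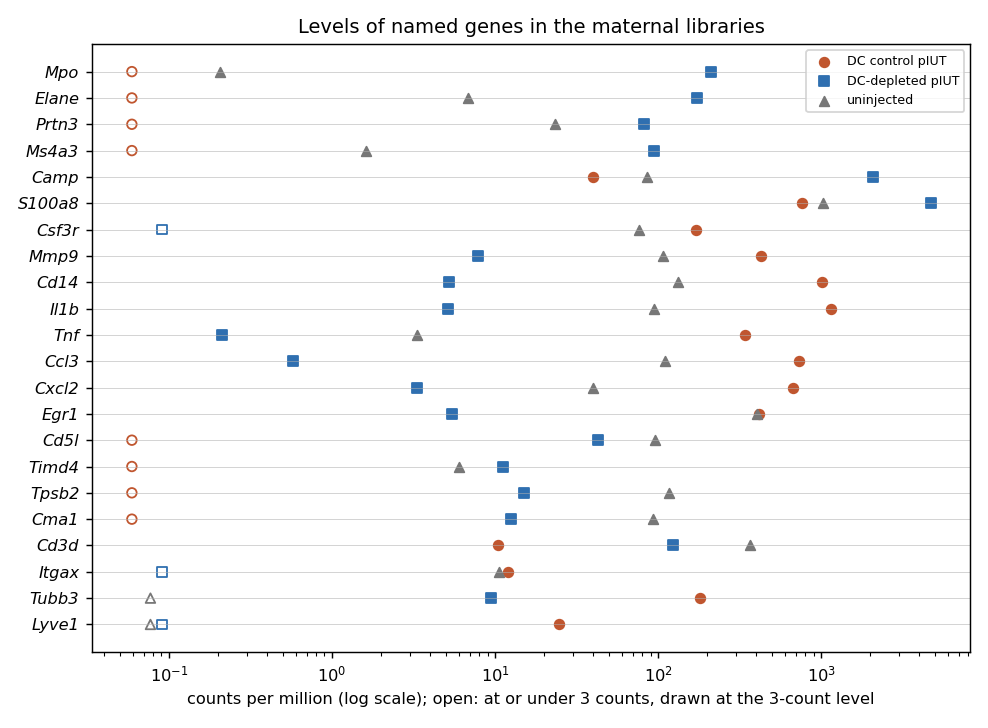
CPM of 22 genes in the maternal libraries of DC control pIUT (circles), DC-depleted pIUT (squares) and uninjected pups (triangles), on a log scale. Open symbols stand for 3 counts or fewer and are drawn at the level of 3 counts. Mpo, Elane, Prtn3 and Ms4a3 are open in DC control pIUT, while Tnf, Ccl3, Il1b and Cd14 are far lower in DC-depleted pIUT.

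Monocyte genes were divided. Of 12 tested, 4 were higher and 5 lower, with a median log2 fold change of 0.25, which was -4.59 when 10 counts were asked of both libraries. Ccr2 and Ms4a6c, typical of classical monocytes, had 0 against 133 and 1 against 508 counts and Ly6c2 had 330 against 1043, while Itgam, the CD11b integrin that neutrophils share, had 5489 against 109, and F13a1, coagulation factor XIII, 1925 against 24. Csf1r, the receptor that monocytes and macrophages depend on, lay at 19.3 and 19.9 CPM. Genes of tissue macrophages leaned to DC-depleted pIUT, with 9 of 15 tested higher and 1 lower, and 7 and 3 under library size, and 7 and 2 after the length adjustment. Cd5l, a secreted protein of liver and spleen macrophages, had 0 against 1412 counts and was at least 721-fold higher. Timd4, a receptor for dying cells, had 0 against 371, Spic, the transcription factor of red pulp macrophages, 0 against 211, Vsig4, a complement receptor of Kupffer cells, 0 against 145, and Slc40a1, the iron exporter ferroportin, 2442 against 12323. Ferroportin is also made by erythroblasts. The complement genes C1qa, C1qb and C1qc were between 4.83 and 6.12 fold higher. Cd163, the scavenger receptor for haemoglobin, went the other way with 180 against 4, and Adgre1, the F4/80 antigen, was alike at 22 and 17.1 CPM. In recipient cells of the same 2 groups the median of tissue macrophage genes was 3.78, also higher in DC-depleted pIUT.

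Mast cell and basophil proteases were found in DC-depleted pIUT alone of the pair. Of 14 tested of 15 listed among genes of mast cells, basophils and eosinophils, 9 were higher, all from 0 counts, and 2 were lower, both to 0. With 10 counts in both libraries the list median of 4.41 turned to -0.57. The tryptases Tpsb2 and Tpsab1, which are near copies of each other, had 0 against 500 and 0 against 251 counts, Cma1, mast cell chymase, 0 against 414, and Cpa3, carboxypeptidase A3, 0 against 102. Mcpt8 and Prss34, proteases of basophils, had 0 against 130 and 0 against 115. The 2 lower genes mark eosinophils, Epx, eosinophil peroxidase, with 311 against 0, and Siglecf with 102 against 0, but Il5ra, the interleukin 5 receptor of eosinophils and basophils, had 0 against 29. Tryptases and chymase were higher still in uninjected cells, with Tpsb2 at 116 CPM against 15.1 in DC-depleted pIUT. Megakaryocyte and platelet genes were at low levels, with 6 of 9 tested of 14 listed higher and 1 lower. Gp5 and Gp9, of the platelet receptor for von Willebrand factor, had 0 against 413 and 0 against 175 counts, but Gp1ba of the same complex had 519 against 0. These lists thus rest on small counts that lie on 1 side or the other. In recipient cells of the same 2 groups the medians were 1.25 for the mast cell list and 3.69 for the megakaryocyte list.

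Genes of conventional dendritic cells, the cells that DT removes in the dam, were divided. Of 8 tested of 10 listed, 3 were higher and 4 lower. With Itgax, the lower genes were Xcr1, a chemokine receptor of cDC1, with 75 against 8 counts, Sirpa, the CD172a of cDC2 and of other myeloid cells, with 6752 against 306, and Clec10a, a lectin of cDC2, with 235 against 0. The higher genes came from 0: Batf3, a transcription factor that cDC1 need, had 0 against 62, Ccr7, which guides dendritic cells and T cells to lymph nodes, 0 against 67, and Flt3, the growth factor receptor of dendritic cell progenitors, 0 against 20. Zbtb46, a transcription factor of dendritic cells that erythroid progenitors and endothelium also express, had 1063 against 2527 and differed by 3.64 fold. Plasmacytoid dendritic cell genes were likewise mixed, with 3 higher and 2 lower of 8 tested of 9 listed. Siglech, the most specific of them, had 0 against 61 counts, and Tcf4, the lineage's transcription factor, 5830 against 91.

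MHC class II genes were far below uninjected cells in both libraries. Their summed level was 160.4 CPM in DC control and 194 CPM in DC-depleted pIUT, against 39896 CPM in uninjected cells. Of 10 tested of 11 listed, 6 were higher and 0 were lower, which became 4 and 1 under library size and 4 and 1 after the length adjustment. H2-Ab1, a chain of the I-A molecule, had 875 against 2305 counts, a log2 fold change of 2.01. Its partner H2-Aa had 659 against 456 counts and was alike in scaled counts, with a log2 fold change of 0.08. Cd74, the invariant chain, had 3519 against 825, with -1.48. H2-DMb1, H2-Oa and H2-Ob, which steer peptide loading, came from 0 to 76, 31 and 47 counts. Class I genes were steadier, with 10 of 11 tested within 4-fold, and 0 and 2 after the length adjustment. H2-K1, the gene of the sorting marker H2K-b, was at 223 and 128 CPM against 3361 in uninjected cells, and the gene table does not separate its b and d alleles. The exception was Nlrc5, the transactivator of class I genes, with 899 against 22 counts.

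T-cell receptor complex genes were found in both libraries, with 5 of 11 tested of 12 listed among T-cell genes higher in DC-depleted pIUT and 1 lower, and 4 and 2 both under library size and after the length adjustment. Cd3d had 527 counts in DC control and 4057 in DC-depleted pIUT, 11.8-fold higher (10.8 to 12.9), and Lck, the kinase that starts receptor signalling, had 1667 against 5258 counts. Cd247, the zeta chain, had 1 against 224, and Cd6, a surface receptor, 0 against 269. Cd3e was alike at 24.9 and 23.0 CPM, as was Cd8b1 at 20.2 and 22.6 CPM. Tcf7, a transcription factor of naive T cells and thymocytes, was lower with 2107 against 232. The constant regions differed by chain. Trbc1 and Trbc2 had 1302 against 5635 and 2211 against 7410 counts, Trac had 641 against 147, and Trdc had 0 against 390. Ptcra, the pre-T alpha chain that pairs with a beta chain before the alpha locus is rearranged, had 15 against 463, 46.8-fold higher (28.4 to 85.2), and was at 0 in uninjected cells, while recipient cells of the same 2 groups had 3223 and 773 counts. Ptcra, Trbc1, Trbc2 and Trdc were named after their values were seen. So beta, delta and pre-alpha transcripts were higher in the library in which alpha transcripts were 2.85-fold lower.

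Genes of T-cell activation were 2 higher and 5 lower of 11 tested of 16 listed, and 2 and 4 after the length adjustment. Their median log2 fold change was -1.91, and -0.47 after the length adjustment. Cd69, an early activation marker that other leukocytes share, had 1466 against 34 counts, and Prkcq, protein kinase C theta, 513 against 0. The costimulatory receptors Cd28 and Icos came from 0 to 59 and 59 counts. Of 9 tested of 14 listed among genes of regulatory T cells and checkpoints, 2 were higher and 3 lower. These counts were 2 and 5 after the length adjustment, where the median went from -1.13 to -2.47, past 4-fold. Cd274, the ligand PD-L1, had 2969 counts in DC control and 0 in DC-depleted pIUT and was at least 646-fold lower. Its receptor Pdcd1 had 1223 against 27, and Havcr2, TIM-3, had 756 against 0. Foxp3, the transcription factor of regulatory T cells, was at 3.64 and 2.21 CPM, 1.64-fold lower (1.25 to 2.19), and Ctla4, an inhibitory receptor, had 0 against 19 counts.

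Of 8 tested of 12 listed among NK cell genes, 4 were lower and 2 higher. Klrk1, the activating receptor NKG2D, had 1345 against 0 counts, and Tbx21, T-bet, 393 against 0, while Klrb1c, NK1.1, had 0 against 37. Gzmb, granzyme B, had 7767 counts in DC control and 140 in DC-depleted pIUT and was 36.2-fold lower (30.6 to 43.1), whereas Gzma was at 138 and 82.9 CPM. Of 4 tested of 12 listed among genes of cytotoxic granules, 1 was higher, Serpinb9, an inhibitor of granzyme B, with 0 against 314 counts, and 1 lower, with 1 and 2 after the length adjustment.

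B cell genes were few and low in both libraries, with 2 higher and 1 lower of 7 tested of 12 listed, and 2 and 2 both under library size and after the length adjustment. Cd79a, of the B cell receptor complex, was at 8.72 and 9.48 CPM against 2476 CPM in uninjected cells, and Ms4a1, CD20, had 7 against 152 counts. Ighm, the constant region of IgM, was at 120.0 and 31.8 CPM, and of 10 tested of 18 listed among plasma cell and constant region genes, 4 were higher and 1 was lower, and 4 and 2 under library size. Genes of receptor recombination and early B cells were detected at low counts, 4 higher and 0 lower of 7 tested of 10 listed, and 4 and 2 after the length adjustment. All 4 higher members were at 0 in DC control pIUT, and the list median of 3.12 turned to -0.88 when 10 counts were asked of both libraries. Rag1 and Rag2, which cut the V, D and J segments, had 218 against 108 and 0 against 86 counts, and Dntt, the enzyme TdT that adds bases to the cut ends, had 0 against 276. Rag1 and Rag2 were at 0 in uninjected cells.

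Red cell genes made up a like share of both libraries. Globins took 16.4% of the counts in DC control and 15.4% in DC-depleted pIUT, against 9.17% in uninjected cells, and of 6 tested of 8 listed, 2 were lower. In scaled counts, unlike in these shares, the summed globin level was higher in DC-depleted pIUT, at 179275 CPM against 127726 CPM in DC control. On that scale the adult genes Hbb-bs and Hbb-bt were 1.74 and 2.08 fold higher. Hba-a1 and Hba-a2, which share most of their sequence, differed by 1.06 and 1.14 fold. The embryonic genes were lower: Hba-x had 1598 counts in DC control and 25 in DC-depleted pIUT, and Hbb-y had 438 against 0. Of 13 tested among genes of heme synthesis and iron import, 12 lay within 4-fold, the exception being Tmem14c, a porphyrin carrier, which was 4.28-fold higher and within 4-fold under library size. Of 15 tested among membrane genes, 4 were lower, 6 under library size, and 0 were higher. The lower ones included Sptb (2970 against 48 counts), Epb41 (3875 against 349) and Epb42 (6048 against 590), which build the spectrin skeleton and its anchors. After the length adjustment the log2 fold change of Epb41 was -1.28 and that of Sptb -3.36. Gata1 and Klf1, the erythroid transcription factors, were 3.44 and 1.65 fold higher, under 4-fold.

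Of 14 tested of 15 listed among erythroid and myeloid transcription factors, 2 were higher and 3 lower. Myb, which keeps blood progenitors dividing, had 0 counts in DC control and 721 in DC-depleted pIUT and was at least 368-fold higher. Gfi1, a repressor needed for neutrophil commitment, had 0 against 86. Cebpb, which drives emergency and inflammatory granulopoiesis, had 36715 against 835 and was 28.7-fold lower, and Spi1, PU.1, had 3085 against 411. Of 9 tested of 12 listed among stem and progenitor genes, 4 were higher and 4 lower. Meis1, a homeobox factor, was at 2256 against 0 counts and Cd34 at 447 against 14, while Hlf, a transcription factor of stem cells, was at 0 against 44 and Kit, the stem cell factor receptor, at 2187 against 962. Replication genes were alike, with 18 of 20 tested within 4-fold, 1 higher and 1 lower. The counts were 1 and 3 under library size, and 2 and 1 after the length adjustment, and their summed level was 5262 and 6213 CPM, against 1160.4 CPM in uninjected cells. Of 20 tested among mitotic genes, 2 were higher and 6 lower, and 4 and 4 after the length adjustment. The kinesin Kif11 had 3166 against 20 counts and Top2a 6007 against 386, but Ccnb1, cyclin B1, was 2.95-fold higher and Cdk1, its kinase, 2.93-fold higher.

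Nuclear genes of oxidative phosphorylation were above 0 in 16 of 17 tested of 19 listed, with a median of 1.84 on the log2 scale, 0.81 after the length adjustment, and 5 passed 4-fold. This count was 1 under library size and 2 after the length adjustment. Ndufa4 had 6726 against 26753 counts and Cox6c 9255 against 25126. Of 12 tested of 13 listed among genes of the mitochondrial genome, 2 were lower, mt-Nd5 (21035 against 1674) and mt-Nd6 (3562 against 347), a count that became 7 after the length adjustment. Of 15 tested among glycolysis genes, 1 was higher and 2 lower, 0 and 4 under library size, and 0 and 1 after the length adjustment. Ldha, lactate dehydrogenase, was 5.34-fold higher while Pkm and Hk1, hexokinase, were 8.54 and 6.94 fold lower. Of 14 tested of 17 listed among interferon-stimulated genes, 4 were lower and 1 was higher, and 8 were lower under library size. Ifit1, which binds viral RNA, had 980 against 0 counts, while Ifi44 had 0 against 296. Of 13 tested of 15 listed among integrin and homing genes, 7 were lower and 3 higher. Itgb2, the shared beta chain of leukocyte integrins, had 4765 against 374 counts, whereas Itga4, the alpha chain of VLA-4, had 0 against 328 and Ccr9, a homing receptor of the gut and thymus, 36 against 307.

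Genes of cells outside the blood differed as well. All 10 neural genes listed were lower in DC-depleted pIUT, with a median of -4.36. Mbp, of myelin, had 9345 against 1225 counts, Stmn2, of growing axons, 8537 against 80, and Tubb3, neuronal tubulin, 9130 against 310. Neurod1, Pax6 and Zic5, transcription factors of young neurons named after their values were seen, had 9456 against 60, 4032 against 2 and 3265 against 0. The summed level of the list was 1045 CPM in DC control, 71.2 in DC-depleted pIUT and 88.2 in uninjected cells, most of the last from Mbp (83.4 CPM), which blood cells also express, as Stmn2 and Tubb3 were at 0 there. Of 9 tested of 12 listed among endothelial genes, 8 were lower and 1 higher. Lyve1, of sinusoids and lymphatic vessels, had 1246 counts in DC control and 0 in DC-depleted pIUT, Kdr, a VEGF receptor, had 1092 against 0, and Egfl7, which blood progenitors share, had 260 against 5549 and went the other way. With Egfl7 the summed level of the list was 98.1 CPM in DC control and 171 CPM in DC-depleted pIUT. Of 10 tested of 12 listed among imprinted growth genes, 6 were lower and 0 were higher. Ndn, expressed in neurons, had 4654 against 89, Peg3 844 against 7, and Igf2 was at 9.53 and 13.5 CPM.

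Hepatocyte genes were 6 higher and 0 lower of 13 tested of 16 listed, where 24.9% of all genes were higher. Under library size 4 were higher. After the length adjustment 3 were higher, a share close to the 22.4% of all genes, and the median log2 fold change went from 1.91 to 1.30. Apoa1 and Apoa2, apolipoproteins of HDL, had 2201 against 8006 and 1142 against 5522 counts, but Alb, albumin, was at 27.9 and 22 CPM. Of 9 tested of 10 listed among muscle genes, 3 were higher, among them Mylpf, a fast myosin light chain, with 1289 against 7642, and the counts were 2 and 1 under library size, and 1 and 0 after the length adjustment. Of 8 tested of 12 listed among epithelial genes, 4 were higher and 0 were lower, with the keratin Krt19 at 0 against 172. All 4 were at 0 in DC control pIUT, and the list median of 2.26 turned to -0.58 with 10 counts in both. Mesenchymal genes were 5 higher and 3 lower of 11 tested of 12 listed, with Pdgfra, a growth factor receptor of fibroblasts, at 2101 against 54 and the collagen Col5a1 at 1235 against 5931. Genes of nonblood tissue were thus read in both sorted libraries, and their part in the differences of blood cell genes was not tested.

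The receptor repertoires differed in number and evenness. MiXCR assembled 32 clonotypes from 3749 reads in DC control pIUT and 552 from 5537 reads in DC-depleted pIUT, against 4429 from 348684 reads in uninjected cells. The Hill number of order 1, the number of equally large clonotypes that would give the same Shannon entropy, was 17.9 (95% counting interval 17.4 to 18.4) and 447 (441 to 454), a ratio of 24.99 (24.2 to 25.8). Thinned to the 3749 reads of DC control pIUT, the DC-depleted library would hold 535 clonotypes, a ratio of 16.7 where the full tables gave 17.25. The 5 largest clonotypes held 53.8% of the receptor reads in DC control and 3.18% in DC-depleted pIUT. Counted by chain and CDR3, the distinct clonotypes were 27 and 538, since the tables also list copies of a CDR3 under another V or J gene. In DC control pIUT 5 clonotypes were identical to or 1 base from a larger one of the same chain, and in DC-depleted pIUT 63 were.

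**Figure D4:**
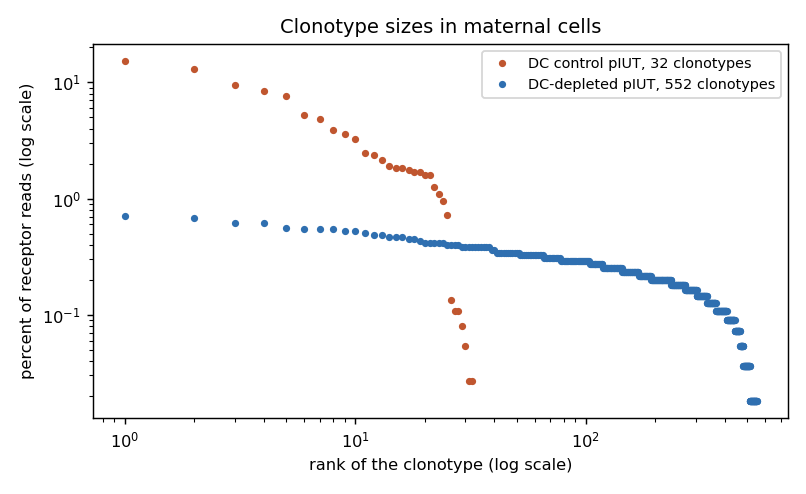
Percent of receptor reads held by each clonotype against its rank in the library, both on log scales, for DC control pIUT (32 clonotypes) and DC-depleted pIUT (552 clonotypes). The largest clonotype holds 15.3% of reads in DC control and 0.704% in DC-depleted pIUT.

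The CDR3 sequences of the largest clonotypes of each library, and of the largest of each chain, are shown because they carry the contrast between few dominant and many small clones. They are written 5′ to 3′ in lower case, and capitals mark the bases between the end of the V and the start of the J segment, which are D bases and bases added at the joints. In DC control pIUT they were an IGH clonotype of 572 reads (15.3% of reads), 2 TRB clonotypes of 492 and 352 reads, 2 IGK clonotypes of 313 and 287 reads, and the largest TRA clonotype, of 68 reads.
IGHV5-6/IGHJ3: tgtgcaagaCATAGGtactgg
TRBV17/TRBJ2-1: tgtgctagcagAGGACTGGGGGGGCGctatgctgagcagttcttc
TRBV13-2/TRBJ2-3: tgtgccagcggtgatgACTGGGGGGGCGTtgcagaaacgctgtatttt
IGKV1-135/IGKJ1: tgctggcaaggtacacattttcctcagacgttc
IGKV11-125/IGKJ2: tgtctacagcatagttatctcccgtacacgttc
TRAV6D-6/TRAJ21: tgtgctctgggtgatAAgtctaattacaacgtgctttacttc

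In DC-depleted pIUT no clonotype exceeded 39 reads. The 5 largest were 2 IGK clonotypes of 39 and 38 reads and 3 TRB clonotypes of 34, 34 and 31 reads. Next came the largest of IGL (28 reads), TRG (23), IGH (18) and, by V gene, of TRA (22) and TRD (16). The CDR3 of the IGH clonotype was read 30 times when its copies under other gene names are counted, and that of the TRG clonotype 25 times.
IGKV6-32/IGKJ5: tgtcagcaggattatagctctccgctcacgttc
IGKV17-121/IGKJ5: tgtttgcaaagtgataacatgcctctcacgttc
TRBV12-1/TRBJ1-4: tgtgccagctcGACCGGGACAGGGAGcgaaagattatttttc
TRBV31/TRBJ1-2: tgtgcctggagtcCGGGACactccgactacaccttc
TRBV13-2/TRBJ2-3: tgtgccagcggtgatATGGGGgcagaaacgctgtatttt
IGLV1/IGLJ3: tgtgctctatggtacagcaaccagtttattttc
TRGV3/TRGJ2: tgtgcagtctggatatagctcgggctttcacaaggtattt
TRAV15-2-DV6-2/TRDJ1: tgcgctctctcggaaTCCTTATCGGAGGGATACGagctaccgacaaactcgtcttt
IGHV5-9/IGHJ4: tgtgcTTACGactatgctatggactactgg
TRDV1/TRAJ57: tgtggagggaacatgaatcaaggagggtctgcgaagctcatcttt

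The TRB and IGH joins of the 5 largest clonotypes in each library were found in no other library. The light chains were different: IGKV1-135/IGKJ1 of DC control pIUT was also read 2044 times in uninjected maternal cells, and IGKV6-32/IGKJ5 and IGKV17-121/IGKJ5 of DC-depleted pIUT 1104 and 1096 times. In recipient cells of DC control and DC-depleted pIUT, IGKV1-135/IGKJ1 was read 61 and 27 times, IGKV6-32/IGKJ5 32 and 42 times and IGKV17-121/IGKJ5 44 and 26 times, and IGKV1-135/IGKJ1 1159 times in uninjected recipient cells. The TRGV3/TRGJ2 join of DC-depleted pIUT was read 84 and 150 times in those recipient libraries. None of these 4 joins holds an added base, and what sharing them means for the source of the cells was not tested. The IGKV11-125/IGKJ2 join, with 287 and 11 reads, was the single CDR3 that both libraries held, and it was also read 22 times in uninjected maternal cells and 34 and 5 times in recipient cells of DC control and DC-depleted pIUT. It was 1 of the 27 distinct clonotypes of DC control (3.70%) and of the 538 of DC-depleted pIUT (0.186%). The TRGV3/TRGJ2 and TRAV15-2-DV6-2/TRDJ1 joins were out of frame. The second is a delta chain rearrangement listed by a V gene that both loci use, and 7 of the 17 clonotypes counted as TRA in DC-depleted pIUT joined to TRDJ1 with the delta constant region. In the reverse case, 2 of the 8 clonotypes counted as TRD joined to TRAJ57 with the alpha constant region, the printed TRDV1/TRAJ57 join among them. A TRAV11D/TRAJ18 join of 63 reads in DC control pIUT, named after its values were seen, uses the V and J genes of the invariant receptor of NKT cells and is shown for that reason.
TRAV11D/TRAJ18: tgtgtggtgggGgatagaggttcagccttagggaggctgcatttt

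These chains come from loci on several chromosomes (GRCm39, GENCODE annotation): TRB at chr6:40868163-41535386, TRA at chr14:52665385-54461663 with TRD inside it at chr14:54119069-54386751, TRG at chr13:19362194-19536926, IGH at chr12:113218450-115973713, IGK at chr6:67532481-70703950 and IGL at chr16:18880368-19079609.

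By chain, TRB made up 9 of 32 clonotypes in DC control pIUT (28.1%, Wilson 95% interval 15.6 to 45.4) and 427 of 552 in DC-depleted pIUT (77.4%, 73.7 to 80.7). In uninjected maternal cells it was 12.1%. In recipient cells of DC control and DC-depleted pIUT, TRB was 74.7% and 40.1% of clonotypes, and TCR chains together were 89.2% and 58.4%. In the maternal DC control and DC-depleted libraries TCR chains together were 53.1% (36.4 to 69.1) and 85.1% (81.9 to 87.9) of clonotypes. These intervals take clonotypes as independent draws from 1 pooled library and are no test of the difference. Over reads they were 46.8% and 83.5%. TRA had 8 clonotypes in DC control and 17 in DC-depleted pIUT. TRG and TRD, at 18 and 8 clonotypes by V gene in DC-depleted pIUT, were at 0 of 32 in DC control. This allows a share of up to 9.38% when 3 counts of the total are taken as the limit of a count of 0. Of the 8 TRD clonotypes, 2 joined to TRAJ57 with the alpha constant region. IGH made up 21.9% and 3.99% of clonotypes and IGK 25% and 9.78%, although their numbers were higher in DC-depleted pIUT, at 22 against 7 and 54 against 8. Every IGH clonotype of DC control pIUT was assigned to IGHM, as were 19 of 22 in DC-depleted pIUT, where 2 were IGHD. Of the 18 TRG clonotypes, 7 used TRGV3 and 5 TRGV4. In TRB, DC-depleted pIUT used TRBV5 most, in 43 clonotypes (10.1%), followed by TRBV1 in 38 and TRBV19 in 35, and no V gene held more than 10.1%.

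TRB joins of DC-depleted pIUT were short and many had no added base. The median CDR3 length was 45 nucleotides over 9 clonotypes in DC control (range 27 to 48), 39 over 427 in DC-depleted pIUT (range 27 to 71) and 42 over 534 in uninjected cells. The bases between V and D and between D and J had a median of 2 in DC control, 1 in DC-depleted and 3 in uninjected cells. Joins without any such base were 176 of 427 in DC-depleted pIUT (41.2%, Wilson 95% interval 36.6 to 45.9), 1 of 9 in DC control (11.1%, 1.99 to 43.5) and 12% in uninjected cells (9.50 to 15). The share of DC control pIUT rests on 9 joins, and its interval overlaps that of DC-depleted pIUT. In the recipient libraries, sorted by H2K-d, this share was 38.6% after DC control pIUT and 49.5% after DC-depleted pIUT, with a median length of 39 nucleotides in both. Of the 538 distinct clonotypes of DC-depleted pIUT, 63 (11.7%) were also in recipient cells of DC control pIUT and 56 (10.4%) in recipient cells of DC-depleted pIUT, the library of its own group, against 41 (7.62%) in uninjected maternal cells. For the 27 of DC control pIUT these numbers were 4, 4 and 5. The recipient and uninjected tables are of different sizes, at 5272, 2872 and 3659 distinct clonotypes, and the part of recipient cells in the sort was not tested.

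**Figure D5:**
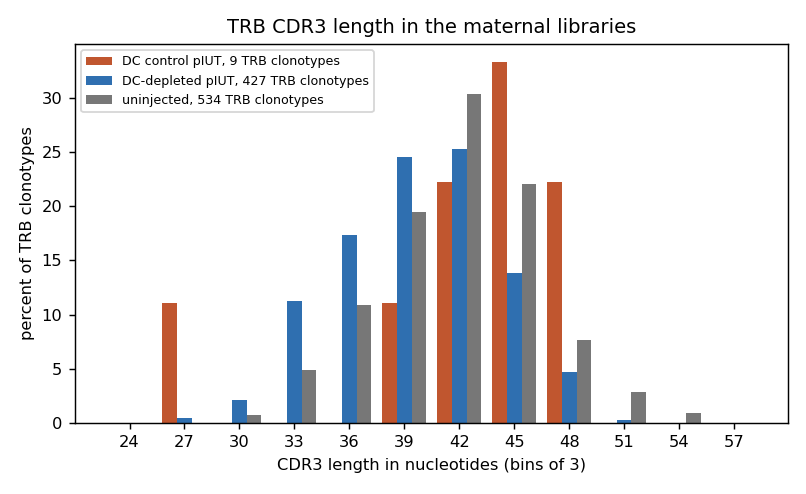
Percent of TRB clonotypes by CDR3 length in nucleotides, in bins of 3, for DC control pIUT (9 clonotypes), DC-depleted pIUT (427) and uninjected maternal cells (534). Lengths beyond the bin at 57 are not drawn. DC-depleted pIUT is centred on 39 to 42 nucleotides, DC control pIUT on 45 and uninjected cells on 42.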

How the data were processed

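Maternal and recipient cells were sequenced as 8 pooled libraries, 1 per group, on which the gene table and the clonotype tables rest. Per the methods and the labels, the authors ran a public RNA-seq workflow against GRCm39 with GENCODE annotation and deposited 1 table of estimated counts per gene, with no normalization. Its fractional values have the form that salmon writes, whereas the methods name featureCounts, and they were rounded to whole counts here. The authors also deposited MiXCR tables with a clone count, the number of reads of each clonotype, and a clone fraction, which is that count over the table's total. No column of a sample was left out of the tables (0 columns), and no file of the authors' own comparisons was used.

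Total counts were 39477126 and 38543457, so a single read stood for well under 1 CPM, and intervals on ratios of counts are exact and cover counting error only. edgeR 4.0.16 in R 4.3.3 gave TMM factors over all 8 libraries (1.28 and 0.857 for DC control and DC-depleted pIUT) and the log2 fold change of its exact test at a dispersion of 0.4, the value in the methods, of which no p-value was used. Where a library had 3 counts or fewer, the fold is a bound against 3 counts in that library, and with 1 to 3 counts the text gives the ratio of the counts with its interval. Genes with 10 or more counts in either library were tested, and a fold of 4 in either direction was called. The calculation was first tested on simulated data with known changes. Named genes were the 8 with most reads of those called in each direction, the next 7 by fold at 50 CPM or more, the 4 most read members of each of 42 lists and the members called. The 5 largest clonotypes of each library, the largest of each chain and those shared were printed. Genes that are in no list and fall outside this rule are said to be chosen after their values were seen. A few genes that the rule names are not reported here. The members and lists were chosen with earlier results of these data known. Gene names, positions and transcript lengths came from the GRCm39 annotation, which matched 99.0% of the gene identifiers with a count. Distinct clonotypes were counted by chain and CDR3 nucleotides, and shares carry Wilson 95% intervals. Alternatives were other scalings (TMM over the 2 libraries, DESeq2 1.42.0 size factors, library size alone), prior counts of 2 and 5, a floor of 10 counts, 10 counts in both libraries, no count filter, and T- or B-cell receptors alone. The length adjustment was added after seeing the data. The tables were handled in Python 3.11.15.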

Additional observations from a re-analysis of the deposited data

Results flagged for a closer look

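Of the clonotype ratios and of the gene lists whose median passed 4-fold in both cell types, 4 results went one way between DC-depleted and DC control pIUT in maternal cells and the opposite way in recipient cells, which were sorted by H2K-d from pups of the same 2 groups. Each side is 1 library, and these differences were not tested. Maternal cells had 17.25 times as many clonotypes in DC-depleted pIUT, while recipient cells had 5488 in DC control and 3064 in DC-depleted pIUT, a ratio of 0.558. The recipient tables rest on 48175 and 18579 reads, and at 3749 reads each they would hold 2356.2 and 1779.8 clonotypes. The Hill number of order 1 had a ratio of 24.99 in maternal cells and of 0.439 in recipient cells, from 3728.0 to 1636.9. Imprinted growth genes had a median log2 fold change of -2.47 in maternal and 2.44 in recipient cells, over 10 genes in each, but -1.92, under 4-fold, in maternal cells after the length adjustment. Endothelial genes had -5.45 over 9 genes in maternal and 3.63 over 11 genes in recipient cells. The remaining lists past 4-fold in both cell types were higher in DC-depleted pIUT in both. These were primary granules (9.87 in maternal and 3.74 in recipient cells), tissue macrophages (2.30 and 3.78) and megakaryocytes (4.03 and 3.69). Other lists whose medians had opposite signs, such as neural cells and red-cell membrane, lay under 4-fold in maternal or in recipient cells. The groups hold 1 library each, so that no search for a sample far from its group was possible.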

How the results depend on the processing

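No paired analysis was possible because each group was 1 pooled library, and for the same reason no replicate could be left out. Of all calls 46.9% were higher in the main analysis, 36.3% under library size alone (3041 higher, 5331 lower) and 36.1% with 10 counts in both libraries, which left 1302 genes higher and 2308 lower. The median of all genes was -0.07, and it was -0.65 under library size, -0.22 with DESeq2 size factors, -0.15 with 10 counts in both and 0.10 with no count filter. Of 14 list medians past 4-fold, 126 recalculations gave 109 on the same side, 14 under 4-fold in the same direction and 3 reversed, and of 26 list medians under 4-fold, 234 recalculations gave 204 on the same side, 9 past 4-fold and 21 with the other sign. With 10 counts in both, which drops each gene at or near 0 in a library, the medians of receptor recombination and early B cells (-0.88), mast cells, basophils and eosinophils (-0.57) and epithelial cells (-0.58) reversed, and those of primary granules (0.87), tissue macrophages (1.66), megakaryocytes (1.58) and MHC class II (0.060) lay under 4-fold. Under library size, MHC class II was at 1.55, tissue macrophages at 1.72 and epithelial cells at 1.68, and with DESeq2 size factors MHC class II was at 1.98. A floor of 10 counts gave 1.38 for recombination and 1.39 for epithelial cells. The length adjustment gave 0.79 for MHC class II, 1.71 for tissue macrophages, 1.59 for epithelial cells and -1.92 for imprinted genes. The ratio of clonotype numbers was 27.6 for T-cell receptors alone and 5.47 for B-cell receptors alone, and that of Hill numbers 42.8 and 7.18. Apart from the 10-count rule, the causes of these shifts were not tested. Genes under 3 counts in both libraries (0.0593 and 0.0909 CPM) could not be compared.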
